A study of Danio rerio with 10 samples.

Results

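The genes described here are the 192 zebrafish genes that the authors' deposited table types as ion channels, of 14781 genes listed. The type was taken as written for 196 genes, and 4 of them were left out by name (mcoln1a, mcoln2, slc9a3.1 and slc9a3.2), as were any connexin and solute carrier names. By the family stem of the gene name, 51 belonged to potassium channels, 18 to sodium and proton channels, 26 to calcium channels, 22 to channels for chloride and other anions, 22 to mixed cation channels and 32 to channels opened by transmitters. The remaining 21 had a name that gives no ion.

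Ion channels are membrane proteins whose pore lets ions pass down their electrochemical gradient when voltage, a ligand, stretch or an intracellular signal opens it. Astroglia hold a negative resting potential through potassium channels and take up the potassium that active neurons release. In the neurohypophysis, the neural lobe of the pituitary, pituicytes surround the endings from which hypothalamic neurons release vasotocin and oxytocin, and astroglia of this region are known to respond to osmotic and purinergic signals.

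RNA was sequenced from sorted cells of the hypophysis of male zebrafish of the TL strain, 12 months old. Each fish had received 10 µL of 4.6 mM β-Ala-Lys-Nε-AMCA, a dipeptide carrying a blue dye, 3 hours before its pituitary was taken. The AMCA-positive group had 5 libraries of cells inside the dye gate, which the labels call pituicytes, and the AMCA-negative group had 5 libraries of cells outside it, called non-pituicytes. Both groups came from the same injected fish: 5 pools of 7 pituitaries were dissociated and sorted in 2 experiments, and plates 1 and 2 held 2 and 3 libraries of each group.

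Library totals ran from 5068078 to 5919478 counts in AMCA-positive and from 4250948 to 6068781 counts in AMCA-negative libraries. The effective library sizes used for scaling were 6001252 to 6755803 in AMCA-positive but only 3548789 to 5291695 in AMCA-negative libraries. By that measure the groups were not equal in depth. In AMCA-positive libraries 11308 to 11817 genes had a count and in AMCA-negative ones 7079 to 9056, with the fewest in AMCA-negative replicate 3. Of markers of astroglia 11 of 14 tested were higher in AMCA-positive cells, with a summed level of 3177 to 6466 CPM (counts scaled to a common library size) against 395.1 to 1066 CPM, and the astroglial transporter gene slc1a3a had no AMCA-negative count. Leukocyte markers moved with them, with 8 of 12 tested higher and 1 lower and a sum of 9497 to 28430 CPM against 1575 to 4323 CPM. So did markers of mural cells and fibroblasts (7 of 10 tested higher, 541.1 to 1175 CPM against 7.608 to 183.4 CPM; pdgfrb without a count in either group) and of epithelium (6 of 8 tested higher, 3738 to 5595 CPM against 72.79 to 490.0 CPM; krt5 without an AMCA-negative count). All 12 red cell markers were lower, at 373.3 to 1214 CPM against 250600 to 600300 CPM. Of endocrine markers 2 of 10 tested were higher and 0 lower, and the sums overlapped. The 2 were pomca and pomcb. The gene pomca had 2982 to 22660 CPM in the AMCA-positive and 2.638 to 47.81 CPM in the AMCA-negative libraries (edgeR adjusted p = 0.000394). The hormone gene prl, which did not pass, reached 31900 CPM in AMCA-negative replicate 2. The part of these other cell types in the channel results was not tested, and in bulk libraries fewer cells of a type and less RNA per cell cannot be told apart.

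A smaller share of channel genes than of all genes could be tested. Most channel genes called were higher in AMCA-positive cells, as among all genes tested (1190 higher, 642 lower). Of the 192 genes 59 were tested (30.7%, against 61.5% of all genes), and 133 had too few counts for it, 14 of them none in any library. A two-sided quasi-likelihood test (edgeR, with a term for plate, Benjamini-Hochberg adjustment over all 9094 genes tested, threshold 0.05) found 8 channel genes higher and 2 lower in AMCA-positive cells. The 8 are 13.6% of the channel genes tested, beside 13.1% of all genes tested. The 2 are 3.39%, beside 7.06% of all genes tested. With all libraries the share of channel genes called higher was thus near that of genes in general. Without any 1 of the AMCA-negative libraries, 15 to 17 of 69 to 72 channel genes tested were higher (20.8% to 24.6%). The 8 were among them each time, and of all genes tested 15.3% to 17.1% were higher. The filter was applied anew each time, and of the 59 genes above 9 to 12 were called higher. Without any 1 of the AMCA-positive libraries, 8 to 10 of 62 to 65 channel genes were higher (12.9% to 15.9%), beside 11.1% to 12.1% of all genes tested. The median fitted log2 change, AMCA-positive over AMCA-negative, was 1.07 over the 59 and 0.51 over all genes tested, and 38 of the 59 had a positive sign. A gene could enter the test through the group in which it was high, so these values describe the genes tested and not all 192.

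Grouped by ion, calls were spread thinly. Of the genes tested, 1 of 5 potassium, 0 of 5 sodium and proton, 0 of 11 calcium, 2 of 11 anion, 2 of 10 mixed cation and 1 of 4 transmitter-gated channel genes were higher, with 2 of 13 in the unclassified group. The 2 lower genes were 1 of the 11 calcium and 1 of the 13 unclassified genes. The groups also differed in how many genes could be tested at all, since 46 of 51 potassium and 28 of 32 transmitter-gated genes had too few counts or none. Median log2 changes of the genes tested were -0.58 for potassium, 0.68 for sodium and proton, 0.65 for calcium, 1.49 for anions, 2.85 for mixed cations, 0.30 for transmitter-gated and 0.50 for unclassified genes, the same with genes that had no AMCA-negative count set at their bound. Genes that form a pore made up 37 of those tested, of which 6 were higher and 1 lower, and of 9 tested auxiliary subunits none passed edgeR in either direction or had an unadjusted p under 0.05. Of these 9, limma-voom called cacnb1 and stim1a higher, and DESeq2 cacnb1 and cacna2d1a. Of all genes tested limma-voom called 26.7% higher and DESeq2 25.7%.

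**Figure D1:**
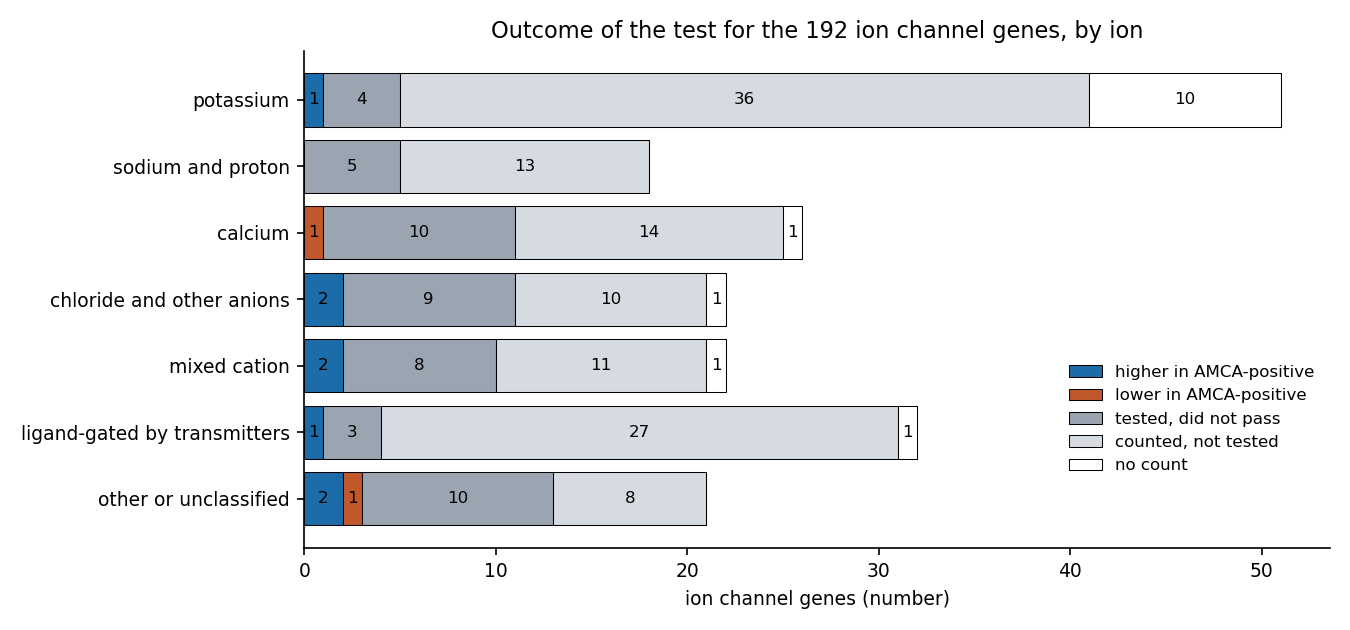
Number of ion channel genes (x axis, genes) in each of the 7 groups (y axis), split by outcome of the edgeR test of AMCA-positive against AMCA-negative libraries. Of the 51 potassium genes 5 could be tested, while 11 of 26 calcium and 11 of 22 anion genes could.

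The summed level of all 192 genes was 2885 ± 144.5 CPM in the AMCA-positive and 1932 ± 350.2 CPM in the AMCA-negative libraries (SD, n = 5 each), and the groups did not overlap. Genes for anion channels carried much of that: their sum was 1398 ± 170.4 CPM in the AMCA-positive and 713.2 ± 175.5 CPM in the AMCA-negative libraries (SD, n = 5 each), again without overlap. Sums for potassium channels overlapped, at 86.83 ± 22.32 CPM in the AMCA-positive and 94.87 ± 26.55 CPM in the AMCA-negative libraries. So did those for calcium channels, at 161.5 ± 9.416 CPM and, with a far wider spread, 267.4 ± 139.3 CPM in AMCA-negative libraries. The unclassified group, at 1014 ± 180.4 CPM and 684.9 ± 158.7 CPM, overlapped too. Without that group the sums were 1870 ± 118.6 CPM and 1248 ± 216.0 CPM, without overlap. A few families held much of the difference. Mean sums in AMCA-positive and AMCA-negative libraries were 588.1 and 197.7 CPM for FXYD genes and 573.2 and 97.46 CPM for CLIC genes. For porins they were 631.4 and 454.9 CPM. The sums thus do not show that channel genes were broadly higher. A sum follows the genes with the most counts, and counts were not corrected for transcript length, so levels are not compared between genes.

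**Figure D2:**
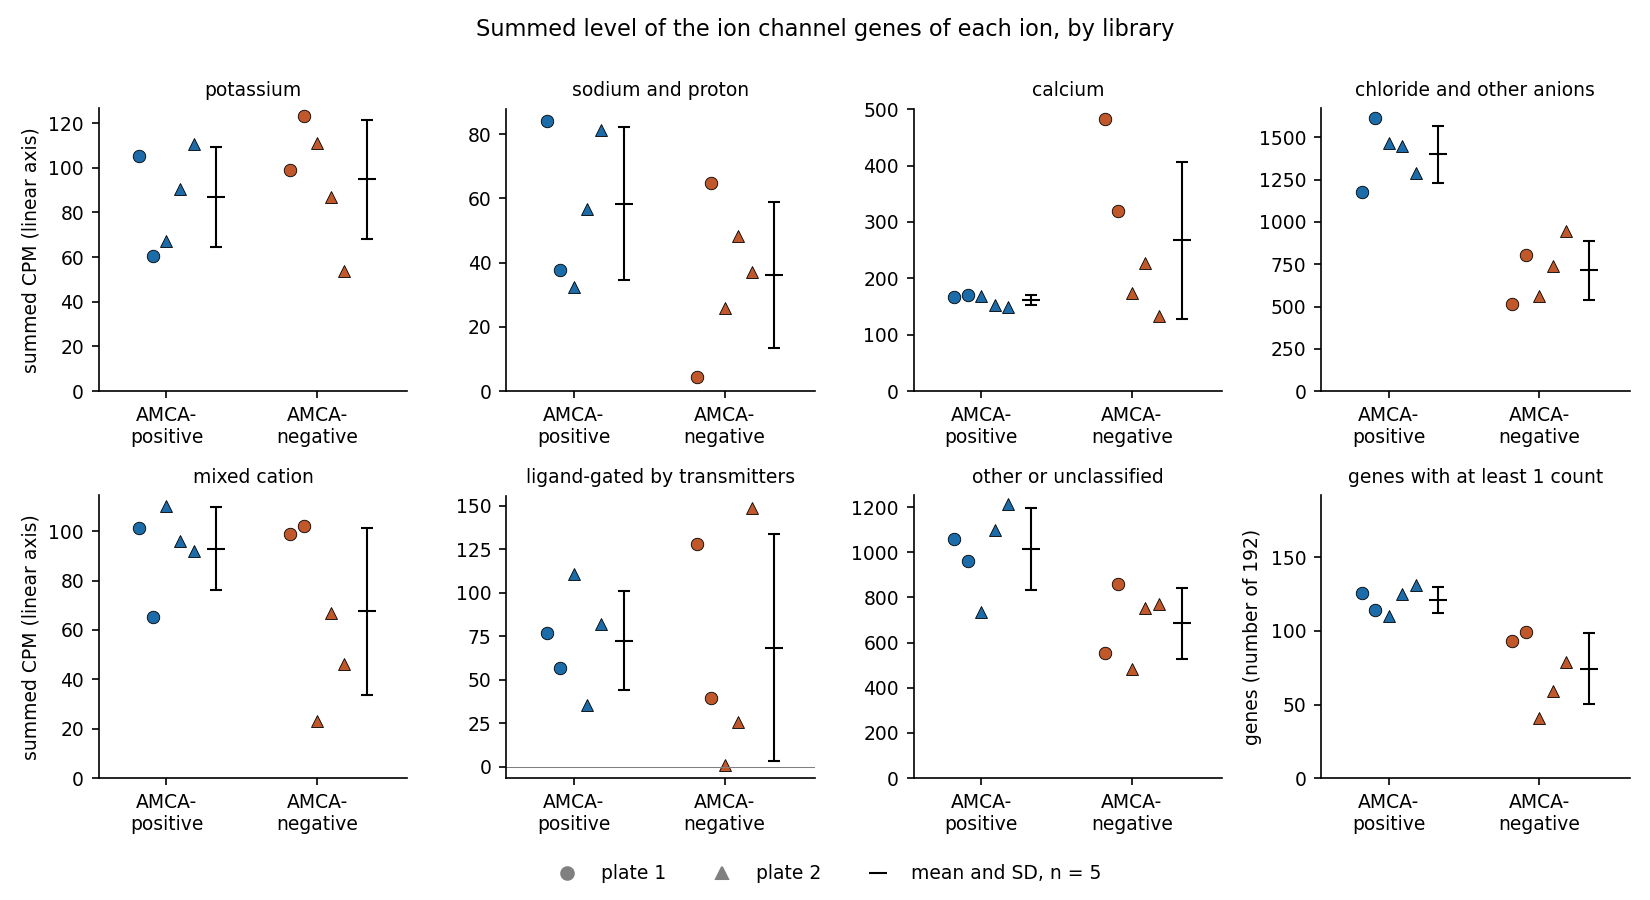
Summed level (y axis, CPM) of the ion channel genes of each group in every library, with AMCA-positive libraries left of AMCA-negative ones; bars mark the mean and SD of 5 libraries. The anion sums lie between 1175 and 1615 CPM in the AMCA-positive and between 516.5 and 943.9 CPM in the AMCA-negative libraries.

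The potassium channel gene that passed was kcnk5a, a two-pore-domain channel of the acid-sensitive TASK-2 type, whose mammalian relative passes background current and takes part in cell volume regulation. It had 24.1, 6.33, 12.4, 26.9 and 26.5 CPM in AMCA-positive libraries 1 to 5, and none of the AMCA-negative libraries had a count. The groups did not overlap, and AMCA-positive replicate 2 was the lowest of the 5. With the AMCA-negative group set at a floor of 3 counts in all, it was at least 144-fold higher (edgeR adjusted p = 0.00441, n = 5 per group).

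Other two-pore-domain genes did not pass or could not be tested. The channel gene kcnk6, of the TWIK branch, had 5.95, 1.33, 10.1, 8.76 and 9.38 CPM in the AMCA-positive and 3.10, 35.2, 58.6, 19.5 and 9.48 CPM in the AMCA-negative libraries. Its groups overlapped, and its fitted log2 change was -1.93 ± 0.96 (SE; edgeR adjusted p = 0.206). The weakly conducting TWIK channel genes kcnk1a and kcnk1b had too few counts for the test: kcnk1a had 10, 11, 8, 0 and 24 counts in AMCA-positive libraries and kcnk1b 14, 0, 42, 2 and 11, and neither had a count in AMCA-negative libraries. DESeq2, which tests more genes, called both higher (kcnk1a adjusted p = 0.0262, kcnk1b adjusted p = 0.0253). Of the 12 two-pore-domain genes, 5 (kcnk3a, kcnk9, kcnk10b, kcnk13a and kcnk13b) had no count in any library.

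Inward rectifiers and calcium-activated channels set and restore the resting potential. Of 11 inward rectifier genes only kcnj2a, a Kir2 channel gene, could be tested. It had 22.3, 13, 12.9, 22.3 and 19.9 CPM in the AMCA-positive and 10.4, 19.1, 4.90, 3.02 and 5.25 CPM in the AMCA-negative libraries, which overlapped through AMCA-negative replicate 2 (log2 change 1.34 ± 0.82 SE, edgeR adjusted p = 0.313; DESeq2 adjusted p = 0.0166, past the threshold). Another, kcnj13, had no count. The 6 numbered copies of kcnj1a may be near-identical genes among which reads were split, so their low counts are uncertain. The large-conductance calcium-activated channel gene kcnma1a had 4.88, 8.66, 3.55, 7.68 and 8.74 CPM in the AMCA-positive and 1.97, 14.7, 0, 25.1 and 8.88 CPM in the AMCA-negative libraries. The AMCA-negative values lie on both sides of the AMCA-positive ones (log2 change -0.58 ± 1.22 SE, edgeR adjusted p = 0.807), and the sign turned to 0.59 with limma-voom and to 0.13 without AMCA-negative replicate 4. The genes kcnj10a, kcnj10b, kcnj16 and kcnn4 were not listed under these names, so nothing is known of them here.

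Of 19 voltage-gated potassium channel genes, which repolarise excitable cells, only kcnh6a had enough counts for the test, and it did not pass (log2 change -2.60 ± 1.71 SE, edgeR adjusted p = 0.355). A further pair had more in every AMCA-positive than in any AMCA-negative library. The Kv3 family gene kcnc4 had 8, 16, 20, 12 and 12 counts in AMCA-positive libraries and none in AMCA-negative ones. The A-type channel gene kcnd3 had 61, 29, 29, 9 and 67 counts in AMCA-positive and 1, 6, 0, 0 and 0 counts in AMCA-negative libraries. With a filter that follows plate as well as group, chosen after seeing the data, both were tested and passed edgeR (kcnc4 adjusted p = 0.00952, kcnd3 adjusted p = 0.0251). Both genes, like those named with this filter below, entered it through the AMCA-positive libraries, where they were high. Their p-values under it are therefore no added support for a difference.

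No sodium or proton channel gene passed edgeR, and 0 of the 5 tested had an unadjusted p under 0.05 in either direction. DESeq2 called 2 of 13 higher and limma-voom 1 of 5, beside 25.7% and 26.7% of all genes they tested. The voltage-gated proton channel gene hvcn1, which in mammals carries protons out of phagocytes, had 45.1, 28.2, 16.3, 27.8 and 36.7 CPM in the AMCA-positive and 0, 0.44, 25.7, 0 and 0 CPM in the AMCA-negative libraries. A single library, AMCA-negative replicate 3, made the groups overlap, and with it the gene did not pass (log2 change 3.40 ± 2.06 SE, edgeR adjusted p = 0.312). Without that library the log2 change of hvcn1 was 8.13 (edgeR adjusted p = 0.00367), and with all libraries and limma-voom it was 6.14 (limma adjusted p = 0.00167). Summed leukocyte markers were higher in the AMCA-positive libraries, as given above. AMCA-positive replicate 3 had the highest leukocyte sum, at 28430 CPM, and the least hvcn1 of its group. AMCA-negative replicate 3, with the most hvcn1 of its group, had the lowest leukocyte sum, at 1575 CPM. These sums rest on few genes. In AMCA-positive replicate 3 cd74a had 18830 CPM. In AMCA-negative replicate 3 cd74a had 560.7 CPM and cxcr4b, the leukocyte marker that was lower in AMCA-positive cells, 920.3 CPM. Of other leukocyte markers, csf1ra and c1qb were highest of their group in AMCA-positive replicate 3 (67.5 and 3425 CPM), but mfap4 was not (253.3 CPM). In AMCA-negative replicate 3 csf1ra had 0, c1qb 1.47 and mfap4 0.2451 CPM. The part of leukocytes in the hvcn1 result was not tested.

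The sodium leak channel gene nalcn, which depolarises neurons at rest, had 1.07, 1.83, 2.96, 7.38 and 4.45 CPM in the AMCA-positive and 0.282, 26.2, 0, 29.7 and 0 CPM in the AMCA-negative libraries. The AMCA-negative level rested on replicates 2 and 4, the groups overlapped, and the fitted log2 change of -1.84 ± 1.77 (SE; edgeR adjusted p = 0.550) turned positive with limma-voom, at 1.01. Of the sodium channel pore genes scn1a and scn1lab were tested and did not pass (edgeR adjusted p = 0.834 and 0.445). Among the beta subunits, which tune gating and surface level, scn3b had 36, 9, 24, 21 and 29 counts in AMCA-positive libraries and none in AMCA-negative ones. Its groups did not overlap, but it had too few counts for the test. With the filter that follows plate and group, chosen after seeing the data, it passed (edgeR adjusted p = 0.00829). By the floor of 3 counts it was at least 27.5-fold higher. Of the neuronal markers gap43 had no count in either group, while elavl4, snap25a and stmn2a had counts in all 10 libraries, and the list summed to 97.89 to 148.5 CPM in the AMCA-positive and 58.08 to 172.5 CPM in the AMCA-negative libraries.

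Calcium channel genes gave 1 call, downward. The gene tmco1, which in mammals forms a pore in the endoplasmic reticulum that lets calcium leak from an overfilled store, had 80.5, 93.8, 52.4, 57.2 and 52.0 CPM in the AMCA-positive and 317, 184, 114, 90.7 and 64.4 CPM in the AMCA-negative libraries. The groups overlapped between 64.4 and 93.8 CPM, and the log2 change was -1.05 ± 0.33 (SE; edgeR adjusted p = 0.0458). This call was marginal: tmco1 passed in 6 of 21 alternative analyses, and its edgeR adjusted p was above 0.05 in 8 of the 10 that left out 1 library. Its log2 change was -1.75 within plate 1 and -0.73 within plate 2, past the test in neither.

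No calcium channel gene was higher by edgeR, and 0 of 11 had an unadjusted p under 0.05 in that direction. DESeq2 called 3 of 19 and limma-voom 2 of 11, beside 25.7% and 26.7% of all genes they tested. Store-operated entry uses a membrane pore, Orai, opened by the store sensor Stim. The pore gene orai1b had 4.12, 0.167, 9.47, 10.1 and 6.36 CPM in the AMCA-positive and 0, 0, 0, 11.9 and 0.404 CPM in the AMCA-negative libraries. Both a low AMCA-positive replicate 2 and a high AMCA-negative replicate 4 caused the overlap (log2 change 2.32 ± 1.66 SE, edgeR adjusted p = 0.403), and without AMCA-negative replicate 4 the log2 change was 5.51 (edgeR adjusted p = 0.0182). The sensor gene stim1a had 16.9, 22.8, 38.6, 26.7 and 22.6 CPM in the AMCA-positive and 0.282, 19.6, 0, 0 and 30.5 CPM in the AMCA-negative libraries (log2 change 1.31 ± 1.56 SE, edgeR adjusted p = 0.637; limma-voom adjusted p = 0.034, past the threshold). Of the AMCA-negative libraries 3 thus had almost none and 2 lay inside the AMCA-positive range. The mitochondrial uniporter gene mcu had 16.8, 17.3, 25.8, 12.9 and 20.0 CPM in the AMCA-positive and 73.8, 14.7, 29.6, 86.2 and 0.404 CPM in the AMCA-negative libraries, with no call (log2 change -1.14 ± 1.01 SE, edgeR adjusted p = 0.513).

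Voltage-gated calcium channels couple depolarisation to secretion in endocrine cells and nerve endings. Their pore genes were sparse: cacna1c had 0, 10, 5, 0 and 16 counts in AMCA-positive and 1, 33, 0, 0 and 17 counts in AMCA-negative libraries, and cacna1da 24, 0, 13, 1 and 2 counts in AMCA-positive and 2, 1, 17, 0 and 11 counts in AMCA-negative libraries. Both were spread over the groups and not tested. The one pore gene tested, the N-type channel gene cacna1ba, did not pass (log2 change -0.40 ± 1.35 SE, edgeR adjusted p = 0.883). The beta subunit gene cacnb2a, which brings the pore to the membrane, was not tested and had 26, 17, 5, 49 and 17 counts in AMCA-positive and 1, 2, 0, 0 and 0 counts in AMCA-negative libraries. Its groups did not overlap, and its pooled ratio was 26.5-fold (95% exact counting interval 8.85 to 131). It passed edgeR with the filter that follows plate and group, chosen after seeing the data (adjusted p = 0.0195). The store release channel gene itpr3 had 0, 26, 3, 6 and 8 counts in AMCA-positive libraries and 16 counts in AMCA-negative replicate 4, with none in the other AMCA-negative libraries. The genes itpr1a, itpr1b, itpr2, orai1a and cacna1db were not listed under these names.

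Among anion channels, clic1 and vdac3 were higher in AMCA-positive cells. The gene clic1, whose product exists as a soluble and a membrane form and is known from macrophages and microglia of mammals, had 374, 697, 406, 493 and 307 CPM in the AMCA-positive and 10.4, 55.4, 31.6, 24.8 and 146 CPM in the AMCA-negative libraries. The groups did not overlap, the nearest being an AMCA-positive library at 307 CPM and an AMCA-negative one at 146 CPM. The log2 change was 3.14 ± 0.66 (SE; edgeR adjusted p = 0.00599), and it was 3.89 within plate 1 and 2.58 within plate 2, past the edgeR test in neither alone (adjusted p = 0.116 and 0.0542). Its relatives clic3 and clic4 had AMCA-negative libraries both near 0 and inside the AMCA-positive range and did not pass edgeR (adjusted p = 0.329 and 0.493), but did by limma-voom (limma adjusted p = 0.00601 and 0.0374).

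The porins of the outer mitochondrial membrane, through which metabolites and small ions pass, gave 1 call among 3 genes. The porin gene vdac3 had 135, 147, 224, 163 and 235 CPM in the AMCA-positive and 108, 42.9, 20.3, 57.1 and 32.1 CPM in the AMCA-negative libraries. Its groups did not overlap, and its log2 change was 1.87 ± 0.47 (SE; edgeR adjusted p = 0.0169). Within plate 1 it was 0.66 and within plate 2 it was 2.51, with no interaction of plate and group past the test (edgeR adjusted p = 0.549), and without AMCA-negative replicates 3 and 4 the adjusted p was 0.135. Its relative vdac2 had 270, 353, 392, 345 and 237 CPM in the AMCA-positive and 273, 361, 336, 293 and 367 CPM in the AMCA-negative libraries. These ranges nearly coincide, with a log2 change of -0.03 ± 0.23 (SE; edgeR adjusted p = 0.952) whose sign turned to 0.12 with DESeq2 size factors. The gene vdac1 had 154, 77.8, 136, 136 and 152 CPM in the AMCA-positive and 29.3, 51.2, 118, 45.4 and 140 CPM in the AMCA-negative libraries and did not pass (log2 change 0.90 ± 0.42 SE, edgeR adjusted p = 0.183). The difference between the 3 genes in response was not tested.

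Anoctamins include chloride channels opened by calcium. The gene ano10a had 29.0, 41.7, 37.9, 29.7 and 24.2 CPM in the AMCA-positive and 0.282, 0.44, 0, 7.18 and 5.45 CPM in the AMCA-negative libraries. Its groups did not overlap, yet it missed the threshold (log2 change 4.12 ± 1.36 SE, edgeR adjusted p = 0.0559), which it passed with DESeq2 size factors (edgeR adjusted p = 0.0449). The gene ano1, the classical member, had 22.4, 44.8, 22.6, 34.4 and 69.3 CPM in the AMCA-positive and 0, 16.3, 0, 20.8 and 0 CPM in the AMCA-negative libraries. The groups again did not overlap, but the lowest AMCA-positive library, at 22.4 CPM, was close to the highest AMCA-negative one, at 20.8 CPM (log2 change 2.37 ± 1.63 SE, edgeR adjusted p = 0.378). By limma-voom ano1 passed (log2 change 5.21, limma adjusted p = 0.0162). The lysosomal exchanger gene clcn7 did not pass (edgeR adjusted p = 0.714), and clcn2a, clcn2b and clcn2c were not listed under these names.

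**Figure D3:**
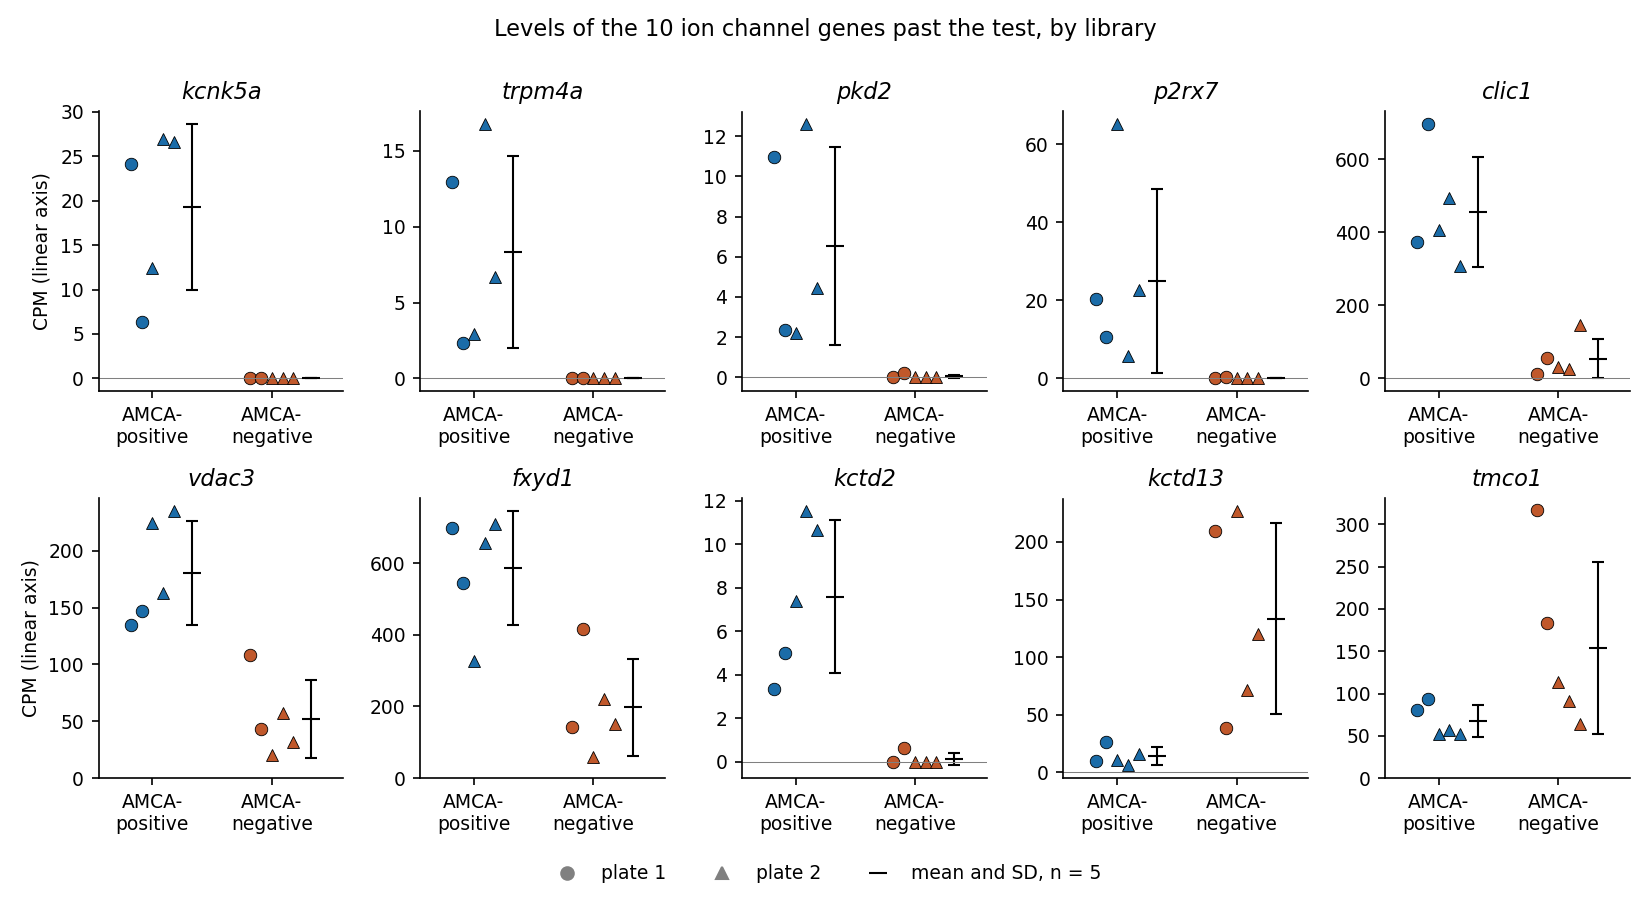
Level (y axis, CPM, one panel per gene, each with its own scale) of the 10 ion channel genes past the edgeR test in each library, AMCA-positive left of AMCA-negative, with the mean and SD of 5 libraries. In kcnk5a and trpm4a every AMCA-negative library is at 0, and in tmco1 and fxyd1 the groups overlap.

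Mixed cation channels pass sodium, potassium and often calcium, and 2 of the 10 tested were higher. The gene trpm4a, a channel that calcium inside the cell opens and that carries monovalent cations, had 13, 2.33, 2.96, 16.8 and 6.67 CPM in AMCA-positive libraries but no AMCA-negative count. It was at least 62.3-fold higher by the same floor (edgeR adjusted p = 0.00795). The polycystin gene pkd2, whose product acts in cilia and the endoplasmic reticulum, had 11, 2.33, 2.22, 12.6 and 4.45 CPM in AMCA-positive libraries and 1 count in all of the AMCA-negative ones, in replicate 2. Its pooled ratio was 147-fold (95% exact counting interval 26.2 to 5850; edgeR adjusted p = 0.00395). In both genes AMCA-positive replicates 1 and 4 were the highest and replicates 2 and 3 the lowest.

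Other Trp channel genes were close to that pattern without passing edgeR. The gene trpv4, which responds to osmotic swelling and warmth, had 4.12, 5.50, 9.32, 4.00 and 1.43 CPM in the AMCA-positive and 0, 0, 0, 0 and 2.42 CPM in the AMCA-negative libraries. One AMCA-negative library, replicate 5, held all of its AMCA-negative counts and lay above the lowest AMCA-positive library. The log2 change was 3.77 ± 1.56 (SE; edgeR adjusted p = 0.127). The gene passed without that library (log2 change 7.75, edgeR adjusted p = 0.00918) and with DESeq2 (adjusted p = 0.0203) and limma-voom (adjusted p = 0.0113) on all libraries. The calcium-selective channel gene trpv6 had 20.6, 11.7, 6.07, 7.07 and 11 CPM in the AMCA-positive and 5.92, 3.08, 0, 3.59 and 2.42 CPM in the AMCA-negative libraries. Its groups did not overlap but nearly touched (log2 change 1.93 ± 1.06 SE, edgeR adjusted p = 0.258), and the gene passed with DESeq2 (adjusted p = 0.00992).

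The channel kinase gene trpm7, which carries magnesium and calcium, had 6.40, 13.2, 28.0, 15.8 and 17.0 CPM in the AMCA-positive and 87.1, 33.9, 21.6, 35.5 and 3.03 CPM in the AMCA-negative libraries. Of the AMCA-negative libraries 3 lay above every AMCA-positive one and 1 below them all (log2 change -1.0 ± 0.94 SE, edgeR adjusted p = 0.538), and within plate 2 alone the log2 change was 0.02. The endolysosomal channel gene tpcn2 had 8.54, 6.83, 17.0, 9.68 and 11 CPM in the AMCA-positive and 1.41, 5.94, 0.49, 5.86 and 20.8 CPM in the AMCA-negative libraries. Only AMCA-negative replicate 5 reached the AMCA-positive range, and the gene did not pass (log2 change 0.70 ± 1.00 SE, edgeR adjusted p = 0.706). The genes piezo1 and tpcn1 were not listed under these names.

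Of channels opened by transmitters, the ATP receptor gene p2rx7 was higher in AMCA-positive cells. P2X7 opens at high extracellular ATP and in mammals is best known from microglia and macrophages. The gene had 20.3, 10.5, 65.1, 5.69 and 22.7 CPM in AMCA-positive libraries and 1 count in all AMCA-negative ones. AMCA-positive replicate 3 stood far above the others, and it also had the highest summed level of leukocyte markers of the 5. The lowest p2rx7 level was in AMCA-positive replicate 4, with a leukocyte sum of 13420 CPM. The lowest leukocyte sum, 9497 CPM, was in AMCA-positive replicate 2. Such sums rest on few genes, as given above. The part of leukocytes in the p2rx7 result was not tested. The pooled ratio was 570-fold (95% exact counting interval 102 to 22500; edgeR adjusted p = 0.00259), which does not cover the spread between libraries. Another ATP receptor gene, p2rx4a, had 38, 47, 43, 3 and 0 counts in AMCA-positive libraries and 1 count in AMCA-negative ones, and was not tested. It passed edgeR with the filter that follows plate and group, chosen after seeing the data (adjusted p = 0.0325). It also passed edgeR without a filter (adjusted p = 0.0448) and DESeq2 (adjusted p = 0.00358). Also of this family, p2rx5 had 3.81, 3.33, 2.22, 5.38 and 2.86 CPM in the AMCA-positive and 1.41, 1.54, 0.245, 2.65 and 1.21 CPM in the AMCA-negative libraries, a log2 change of 1.30 ± 0.78 (SE; edgeR adjusted p = 0.300).

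Glutamate, GABA and glycine receptor subunits had few counts. None of 8 AMPA receptor genes could be tested, yet gria3b had 130, 148, 16, 6 and 56 counts in AMCA-positive libraries and none in AMCA-negative ones. Its groups did not overlap, and it was at least 84.7-fold higher by the floor of 3 counts. It passed edgeR with the filter that follows plate and group, chosen after seeing the data (adjusted p = 0.00984). The glycine receptor beta subunit gene glrbb had 3.05, 1.50, 4.88, 2.00 and 9.22 CPM in the AMCA-positive and 54.4, 0.44, 0, 15.3 and 80.5 CPM in the AMCA-negative libraries. Here 3 AMCA-negative libraries lay above all AMCA-positive ones and 2 below them (log2 change -2.97 ± 1.55 SE, edgeR adjusted p = 0.233).

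In the unclassified group kctd2 and fxyd1 were higher and kctd13 lower; none of the 3 is known to form a pore. The KCTD proteins share a domain with voltage-gated potassium channels, and many act as adaptors of a ubiquitin ligase. The gene kctd13 had 9.91, 26.3, 10.7, 5.99 and 15.9 CPM in the AMCA-positive and 210, 38, 227, 71.8 and 120 CPM in the AMCA-negative libraries. Each of the AMCA-positive libraries lay below each of the AMCA-negative ones, the nearest at 26.3 CPM in the AMCA-positive and 38 CPM in the AMCA-negative group. The log2 change was -3.32 ± 0.64 (SE; edgeR adjusted p = 0.00407), with -3.03 within plate 1 and, past the test also alone, -3.68 within plate 2. Summed red cell markers were highest in AMCA-negative replicates 3 and 1 (600300 and 321500 CPM), the libraries with the most kctd13. AMCA-negative replicate 2, with the least kctd13 of its group, came next at 290800 CPM, above replicate 5 at 261700 CPM. The part of red cells in the kctd13 result was not tested.

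Its relative kctd2 had 3.35, 5.00, 7.40, 11.5 and 10.7 CPM in AMCA-positive libraries and 3 counts in all AMCA-negative ones, all in replicate 2. The groups did not overlap, and the pooled ratio was 56.8-fold (95% exact counting interval 19.2 to 277; edgeR adjusted p = 0.0148). Without AMCA-negative replicates 3 and 4 the edgeR adjusted p of kctd2 was 0.0684. The other 4 KCTD genes tested did not pass. The gene fxyd1 encodes phospholemman, a small regulator of the sodium pump, and had 697, 545, 328, 656 and 710 CPM in the AMCA-positive and 143, 416, 58.8, 220 and 150 CPM in the AMCA-negative libraries. The groups overlapped through AMCA-positive replicate 3 and AMCA-negative replicate 2. The log2 change of fxyd1 was 1.65 ± 0.44 (SE; edgeR adjusted p = 0.0211), and without AMCA-negative replicates 3 and 4 the adjusted p was 0.0673.

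**Figure D4:**
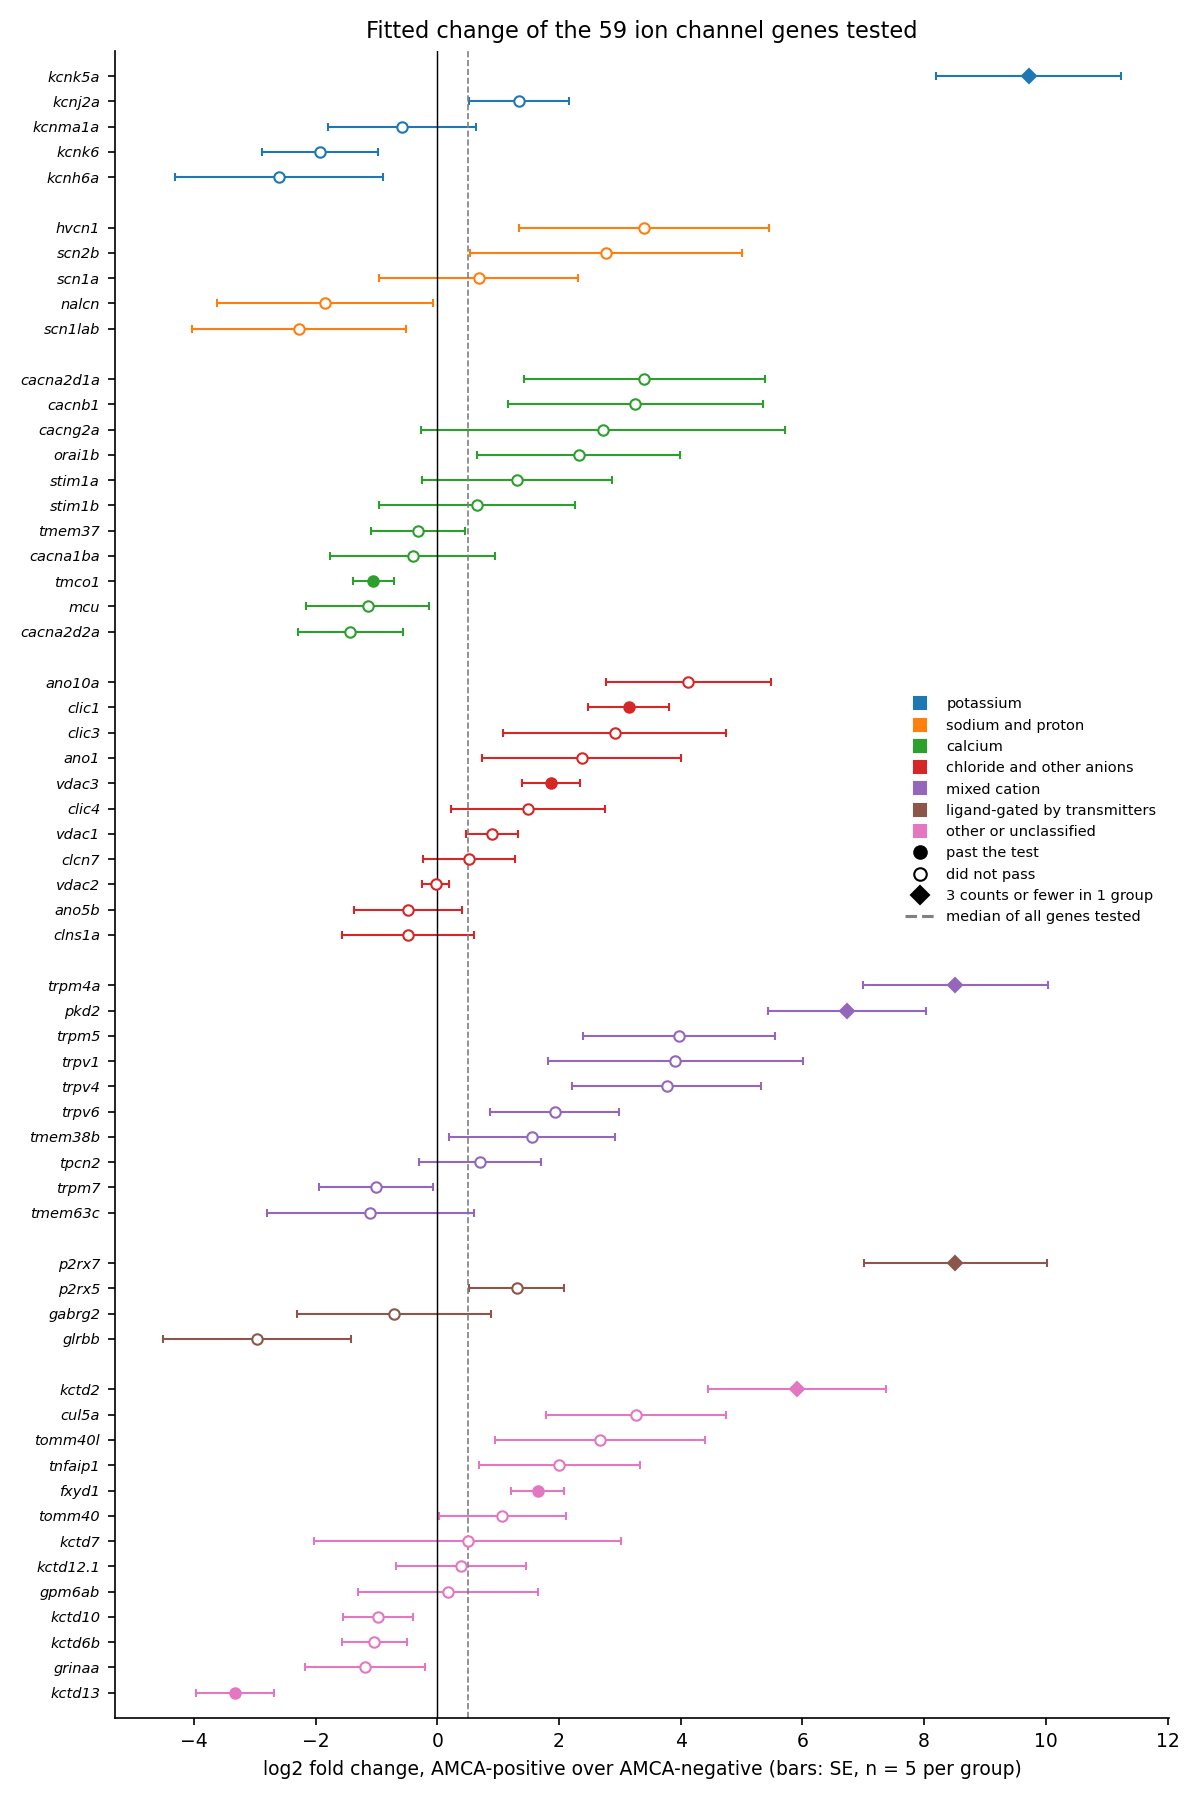
Fitted log2 change, AMCA-positive over AMCA-negative (x axis, with its SE), of the 59 ion channel genes tested by edgeR, grouped by ion; filled points passed the test, and diamonds are genes with 3 counts or fewer in a group, whose fitted size depends on the prior count. The points run from kcnk5a at the far right to kctd13 at -3.32, and vdac2 lies at -0.03.

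Read by library, 15 channel genes had more in every AMCA-positive than in any AMCA-negative library, which is 8.43% of the 178 with a count, against 14.9% of all genes with a count. The 15 include 5 that were not tested: cacnb2a, gria3b, kcnc4, kcnd3 and scn3b, each described above. The reverse held for kctd13 alone, 0.562% against 4.40% of all genes with a count. No AMCA-negative count was found for 29 channel genes, 16.3% of those with a count against 9.94% of all genes with a count. The AMCA-negative libraries had the smaller effective sizes, as given above. Of these 29, 5 had a count in every AMCA-positive library, namely kcnk5a, trpm4a, gria3b, scn3b and kcnc4. The share of all genes with that pattern was not computed. No AMCA-positive count was found for 11, of which the tweety-family gene ttyh2l had 85, 0, 6, 1 and 257 counts in AMCA-negative libraries. For these 11, too, no share over all genes was computed, so whether the number is usual cannot be told.

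Channel genes were often seen in a single library. At least 10 counts in an AMCA-positive library were found for 126 channel genes, 27 of them (21.4%) in exactly 1 library and 45 (35.7%) in all 5. In AMCA-negative libraries there were 93, with 44 (47.3%) in exactly 1 library and 16 (17.2%) in all 5. Over all genes, 8.32% were seen in exactly 1 and 69.3% in all 5 AMCA-positive libraries, and 22.1% and 32.3% in AMCA-negative ones. In 5 cases an AMCA-negative library held 100 counts or more while the other 4 together held 10 or fewer: kcnh5a had 238 counts in replicate 1, kcnj1b 181 and trpc1 118 in replicate 2, hvcn1 105 in replicate 3 and p2rx1 144 in replicate 5. These are 2.6% of the 192, against 3.37% of all genes listed. In AMCA-positive libraries 0 channel genes and 9 of all 14781 genes did so.

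**Figure D5:**
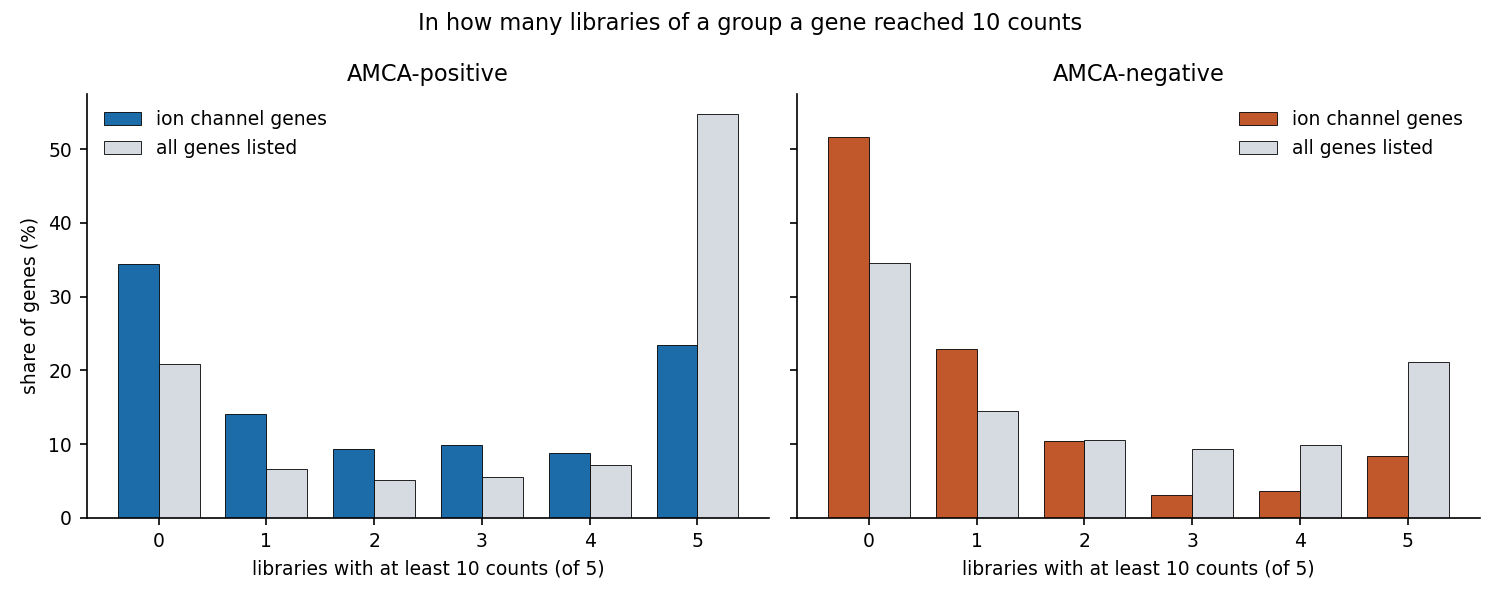
Share of genes (y axis, percent) by the number of libraries of a group in which the gene had at least 10 counts (x axis, 0 to 5), for ion channel genes and for all genes listed, AMCA-positive libraries in the left panel and AMCA-negative ones in the right. Of the 192 channel genes 23.4% reached 10 counts in all 5 AMCA-positive and 8.33% in all 5 AMCA-negative libraries, against 54.8% and 21.1% of all genes listed.

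The plate by group interaction asked whether a channel gene differed between the groups by another amount on the other plate. None of the 59 passed edgeR (0.0% of all genes tested did), and 6 had an unadjusted p under 0.05 (10.2%, beside 9.96% of all genes tested). DESeq2 called 2 of 78, the auxiliary gene cacng2a and kctd7, and the share of all genes it called was not computed. With 2 libraries per group, plate 1 alone gave no channel gene past the edgeR test in either direction, and 0.309% of all genes higher and 0.363% lower; of the 68 channel genes tested there, 18 (26.5%) had an unadjusted p under 0.05 with a positive and 1 (1.47%) with a negative sign, beside 21.2% and 6.33% of all genes tested there. Plate 2 alone, with 3 per group, gave 14 of 65 channel genes higher (21.5%) and 1 lower (1.54%). Of all genes tested there 14.8% were higher and 5.15% lower. Among the 14 were 7 of the 8 found with all libraries.

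The authors' deposited table gave an adjusted p to 126 channel genes, of which 30 (23.8%) were higher and 2 (1.59%) lower in AMCA-positive cells at 0.05. Of all genes there 22.3% were higher and 8.31% lower. The 2 lower channel genes in that table were kctd13 and ttyh2l, and tmco1 was not called. The number called moved with the test and with the filter. DESeq2 on the same counts tested 128 channel genes and called 35 higher, 17 of them among the 59 tested above, and 3 lower, beside 25.7% and 8.04% of all genes it tested. Without a filter, edgeR called 16 of 178 higher and 2 lower, beside 11.5% and 4.47% of all genes. Those 2 were kctd13 and ttyh2l (edgeR adjusted p = 0.0384 for ttyh2l), and tmco1 did not pass. With the filter that follows plate and group it called 19 of 91 higher and 2 lower, beside 16.2% and 6.56%, and with a filter of 10 CPM in 5 libraries 3 of 32 higher and 2 lower, beside 10.4% and 11.4%. On the same 59 genes limma-voom with quality weights called 20 higher and 2 lower, beside 26.7% and 7.19% of all genes. Every one of the 8 genes higher by the edgeR test above was also called by DESeq2, by limma-voom, without a filter and with the filter on plate and group.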

How the data were processed

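RNA was measured in 10 libraries of sorted zebrafish pituitary cells. Per the labels' protocols, Liberase and trypsin freed the cells, dead cells were marked with propidium iodide, and full-length cDNA amplified for 15 cycles with the SMARTer Ultra Low Input kit. The dye label gave each library's group and the title its plate; that plate and sorting experiment are the same is not stated. The labels do not tie libraries to pools, and replicate numbers, which follow sample order, pair nothing.

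Raw counts of each gene in each library, as whole numbers, were deposited by the authors, per the file headers. The submitters' processing notes list, without role or order, the build danRer10 and the tools DESeq2, HTSeq, TopHat2 2.0.13 and cutadapt; of annotation, counting settings and strand, the sources used here say nothing. The authors' deposited log2 fold changes and p-values were used for counts and names of calls alone. Types and mouse orthologues are the authors' annotation; of the 192 names, 182 are current RefSeq symbols and all 192 match with synonyms.

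All genes entered 1 fit by edgeR 4.0.16 under R 4.3.3 (TMM, filterByExpr on group, robust quasi-likelihood F test, plate plus group). CPM uses TMM-adjusted totals of the genes tested, given as mean ± SD over 5 libraries, and SE is the one implied by the F test. Bounds set a group without counts at 3 counts, and pooled ratios carry a 95% exact interval; PCR copies without molecular identifiers are not separate molecules, so both cover counting error alone. Whether p-values measure more than the spread between these pools cannot be told from the labels. The scripts were first tested on simulated counts.

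Named genes were, in each ion group, up to 5 past the test with the smallest adjusted p in each direction, the one with the highest mean CPM in each sorted group, a fixed list of channels of astroglia and stores, and those past the test with no count in a group. Others named, such as ano1, ano10a, trpv6, stim1a, mcu and the untested genes without overlap, were chosen after their values were seen. The members and lists were chosen with earlier results of these data known.

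Alternatives were DESeq2 size factors, DESeq2 1.42.0, limma-voom 3.58.1 with quality weights, either no filter or at least 10 CPM in 5 libraries, no plate term, neighbouring wells as a term, either plate alone and 1 library left out at a time. Added after seeing the data were filterByExpr on plate plus group and leaving out AMCA-negative replicates 3 and 4, which had the fewest genes counted.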

Additional observations from a re-analysis of the deposited data

Results flagged for a closer look

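In 9 of 56 sets of 5 libraries examined, 1 library lay apart from the other 4 by Dixon's criterion (0.71 for 5 values). The criterion always flags a library with any count when the other 4 are at 0. That was so for pkd2, p2rx7, kctd2 and trpv4 in AMCA-negative libraries, so the number of flags cannot be set against chance. Of the 9 flags, 7 lay in AMCA-negative libraries. AMCA-negative replicate 3 held 25.7 CPM of hvcn1, with 0.44 CPM the next. AMCA-negative replicate 4 held 11.9 CPM of orai1b, with 0.404 the next. AMCA-negative replicate 5 held 20.8 CPM of tpcn2, with 5.94 the next, and 2.42 CPM of trpv4, with 0 in the other 4. AMCA-negative replicate 2 held 0.22 CPM of pkd2, 0.22 CPM of p2rx7 and 0.66 CPM of kctd2, with 0 in the other 4; these are 1, 1 and 3 counts. AMCA-positive replicate 3 held 65.1 CPM of p2rx7, with 22.7 the next. AMCA-positive replicate 2 held 77.8 CPM of vdac1, below 136 CPM in the next library.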

How the results depend on the processing

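With all libraries 8 channel genes were higher and 2 lower in AMCA-positive cells. The number higher was 35 with the DESeq2 Wald test, 20 with limma-voom, 16 with no filter, 19 with filterByExpr on plate plus group, 14 on plate 2 alone, 3 with a filter of 10 CPM in 5 libraries and 0 on plate 1 alone. Leaving out 1 library gave 8 to 17, with 15, 17, 16, 15 and 17 without AMCA-negative replicates 1 to 5, and all 8 genes were called each time; of all genes 11.1% to 17.1% were higher in these settings. Without AMCA-negative replicates 3 and 4 together 12 of 87 were higher (13.8%), 5 of them among the 8, beside 15.5% of all genes tested. The number lower was 1 with DESeq2 size factors, no plate term, neighbouring wells, plate 2 alone and without AMCA-negative replicates 3 and 4, 0 on plate 1 alone, and 1 to 2 when 1 library was left out; tmco1 was the gene lost each time, with kctd13 on plate 1 alone. Interactions numbered 0 by edgeR, 2 with the DESeq2 Wald test, and 0 to 1 when 1 library was left out, the 1 without AMCA-negative replicate 2. The settings tested 128 channel genes with DESeq2, 178 with no filter, 91 with the filter on plate plus group and 32 at 10 CPM, against 59 in the test reported; among those 59, DESeq2 called 17 higher, limma-voom 20 and edgeR 8 with either of the wider filters. The cause of these differences was not tested.

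Signs turned for genes that did not pass: nalcn to 1.01 with limma-voom, 1.43 with neighbouring wells and 1.06 without AMCA-negative replicate 4 (from -2.34 without 1 library); kcnma1a to 0.59, 0.44 and 0.13 in the same settings (from -0.92); vdac2 to 0.12 with DESeq2 size factors, 0.12 with the Wald test and from -0.14 to 0.075 without 1 library (0.025 without AMCA-positive replicate 1, 0.031 without AMCA-negative replicate 2, 0.0048 without AMCA-negative replicate 5); and trpm7 to 0.021 on plate 2 alone. DESeq2 size factors moved the median log2 change of all genes tested to 0.66, against 0.51 with TMM. No paired analysis was possible because the replicate numbers follow sample order and the labels do not tie libraries to pools. Neighbouring wells as a term gave 9 higher and 1 lower, beside 13.8% and 4.84% of all genes tested. At this depth 133 channel genes were too sparse to test.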

Other observations

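Pumps that set the gradients channels use were described from lists of other ion-handling genes. Of 12 sodium pump genes tested 2 were higher in AMCA-positive cells by edgeR and none lower. Beside this and the lists below, 13.1% of all genes tested were higher and 7.06% lower. The alpha subunit gene atp1a1b had 275.6 ± 53.5 CPM in the AMCA-positive and 14.14 ± 31.31 CPM in the AMCA-negative libraries (SD, n = 5 each), without overlap (log2 change 7.65 ± 2.13 SE, edgeR adjusted p = 0.0272). AMCA-negative replicate 2 held 70.14 CPM of atp1a1b and the next AMCA-negative library 0.5636, and without it the log2 change was 10.94 (edgeR adjusted p = 4.31e-05). The gene atp1a1a.1 had 321.2 ± 65.28 CPM in the AMCA-positive and 170.7 ± 63.52 CPM in the AMCA-negative libraries, which overlapped. Its log2 change was 0.94 ± 0.24 (SE, edgeR adjusted p = 0.0169). These pump genes have close copies among which reads could be split. Of 5 calcium pump genes tested, 1 was higher and 1 lower. The plasma membrane pump gene atp2b4 had 21.33 ± 12.70 CPM in the AMCA-positive and 0.1003 ± 0.1391 CPM in the AMCA-negative libraries, a pooled ratio of 244-fold (95% exact counting interval 67.3 to 2020; edgeR adjusted p = 0.00278). Its relative atp2b1a had 39.11 ± 12.55 CPM in the AMCA-positive and 223.4 ± 165.4 CPM in the AMCA-negative libraries, which overlapped (log2 change -2.29 ± 0.69 SE, edgeR adjusted p = 0.0395).

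Of 14 aquaporin genes listed, 2 could be tested and 1 was lower, aqp1a.1. It had 4.794 ± 4.871 CPM in the AMCA-positive and 1935 ± 843.1 CPM in the AMCA-negative libraries (SD, n = 5 each). Its log2 change was -8.95 ± 0.72 (SE, edgeR adjusted p = 1.5e-05). The AMCA-negative libraries held the red cell markers and also more of the thrombocyte marker gp1bb. The other thrombocyte marker tested, f5, had the opposite sign and did not pass (log2 change 1.94, edgeR adjusted p = 0.367). Its mean was 89.85 CPM in the AMCA-positive and 31.51 CPM in the AMCA-negative libraries. The part of either cell type in the aqp1a.1 result was not tested. The astroglial water channel gene aqp4 was too sparse to test, with 5, 0, 17, 3 and 0 counts in AMCA-positive libraries and none in AMCA-negative ones. Among 10 tested partners of channels 2 were higher, the FXYD family gene fxyd6l (84.58 ± 17.54 CPM in the AMCA-positive and 4.454 ± 9.802 CPM in the AMCA-negative libraries; log2 change 7.03 ± 2.00 SE, edgeR adjusted p = 0.0300) and the calmodulin gene calm2b (813.9 ± 147.7 CPM in the AMCA-positive and 152.5 ± 109.6 CPM in the AMCA-negative libraries; log2 change 2.61 ± 0.44 SE, edgeR adjusted p = 0.00215). For fxyd6l, too, AMCA-negative replicate 2 held 21.99 CPM and the next 0.2818, and without it the log2 change was 10.01 (edgeR adjusted p = 1.9e-04). The other calmodulin genes did not pass, with positive signs for calm1a, calm3a and calm3b and negative ones for calm1b and calm2a. Of these, calm2a had a mean of 177.5 CPM in the AMCA-positive and 324.4 CPM in the AMCA-negative libraries. Of the lists read beside these, 4 of 10 endothelial, 1 of 4 myelin and 0 of 5 neuronal markers tested were higher, and 1 of 2 thrombocyte markers was lower.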
